A study of Mus musculus with 6 samples.

Results

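The 35 genes of glycolysis, the bisphosphoglycerate (BPG) shunt and the pentose phosphate pathway were followed as mouse fetal liver cells matured in a red cell culture. They were taken by symbol from 54232 gene IDs in the count files, and all 35 passed the filter on low counts. The libraries came from C57/B6 fetal liver at E13.5, depleted of cells with the late red cell antigen Ter-119. The day 0 group held 3 libraries of these purified cells with no treatment. The 30 h group held 3 libraries of such cells grown with erythropoietin (EPO), the hormone that drives red cell production, with the solvent DMSO added at 24 h. Culture time and DMSO changed together, so their effects cannot be told apart. Whether replicates were separate animals or cultures is not in the labels, and p-values may therefore reflect technical spread alone.

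Glycolysis splits glucose into pyruvate and yields ATP without oxygen, and mature red cells, which lose their mitochondria, depend on it. The BPG shunt is a side branch of red cells in which BPG mutase makes the BPG that lowers the oxygen affinity of hemoglobin. The pentose phosphate pathway branches off after the hexokinase step. Its oxidative arm makes the NADPH that keeps glutathione reduced, and its non-oxidative arm exchanges sugars with glycolysis.

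Library totals ranged from 19241780 to 29949173 counts. All 11 erythroid markers examined were higher at 30 h and all 4 progenitor markers were lower, on the scale of CPM (counts scaled to library size). The 8 hepatoblast markers, all called lower, summed to 12871 to 14464 CPM at day 0 and 759 to 2221 CPM at 30 h. The 5 mesenchymal markers, all called lower, summed to 1419 to 1815 CPM at day 0 and 17.1 to 36.9 CPM at 30 h. The 5 endothelial markers, all called lower, summed to 152 to 175 CPM at day 0 and 28.2 to 35.4 CPM at 30 h. The 8 macrophage markers, 3 called higher and 2 lower, summed to 208 to 230.1 CPM at day 0 and 152 to 231 CPM at 30 h. The 30 h libraries varied more, with a biological coefficient of variation of 20.2% against 5.27% at day 0. The 30 h replicate 3 gave the lowest 30 h value for 25 of the 35 genes, or 71.4%, against 43.5% of all genes tested. Globin genes took 13.2% of its counts, against 8.73% and 9.28% in 30 h replicates 1 and 2. With scaling worked out without globin genes, 20 of the 35 genes were higher at 30 h and 7 lower, against 34.4% and 40.1% of all genes. Without 30 h replicate 3, 24 were higher and 8 lower, against 38.0% and 42.0% of all genes. Beyond this, the part of the marker and library differences in the results below was not tested.

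In upper glycolysis 6 of 7 genes were higher at 30 h, in lower glycolysis 4 of 7, in the BPG shunt its 1 gene and in the oxidative pentose phosphate arm none of 3. Of all 35 genes, 20 were higher at 30 h, 7 were lower and 8 did not pass the test (edgeR quasi-likelihood test, adjusted p below 0.05 over all 16150 genes). Among all genes tested 74.5% were called, 34.4% higher and 40.1% lower, while 57.1% of the 35 were higher. For 28 of the 35 genes, or 80%, every 30 h library lay on 1 side of every day 0 library, close to the 79.7% of all genes tested. The median log2 change was 0.57 for the 35 genes and -0.09 for all genes tested. The rise reached 2-fold for 13 genes, where 20.6% of all genes were called higher by that much. The fall reached 2-fold for Ldhb and Pgd, where 28.2% of all genes were called lower by that much.

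Together the 35 genes held 1.130%, 1.12% and 1.12% of all counts in day 0 replicates 1, 2 and 3. At 30 h they held 1.54%, 1.52% and 1.20%. All 30 h shares lay above all day 0 shares (two-sided exact permutation test, p = 0.1, below which 3 libraries against 3 cannot go). Of the 50-base windows of their main transcripts, Gapdh shares 82.5%, Eno1 72.2%, Pgk1 68.0% and Pgam1 41.5% with other genes. Reads of these genes may be lost or miscounted, so the summed shares need not be those of the whole pathway.

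The counts depended on how libraries were scaled. With scaling by totals only, the median over all genes lay at a log2 change of -0.58, and 13 of the 35 genes were higher and 11 lower, against 22.3% and 54.4% of all genes. With the trend of each library with GC content removed, 23 were higher and 3 lower, against 37.9% and 36.9% of all genes. The call held under all 16 alternatives for 13 higher genes: Slc2a1, Pfkp, Pfkfb1, Pfkfb2, Aldoa, Aldoc, Tpi1, Gapdh, Pgk1, Bpgm, Slc16a3, Rpe and Taldo1. It held for 3 lower genes, Ldhb, Slc16a1 and Pgd. All 16 alternatives start from the same read counts. They therefore cannot show whether reads were lost or miscounted, as may be so for Gapdh and Pgk1. The share of all genes tested whose call held was not computed.

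**Figure D1:**
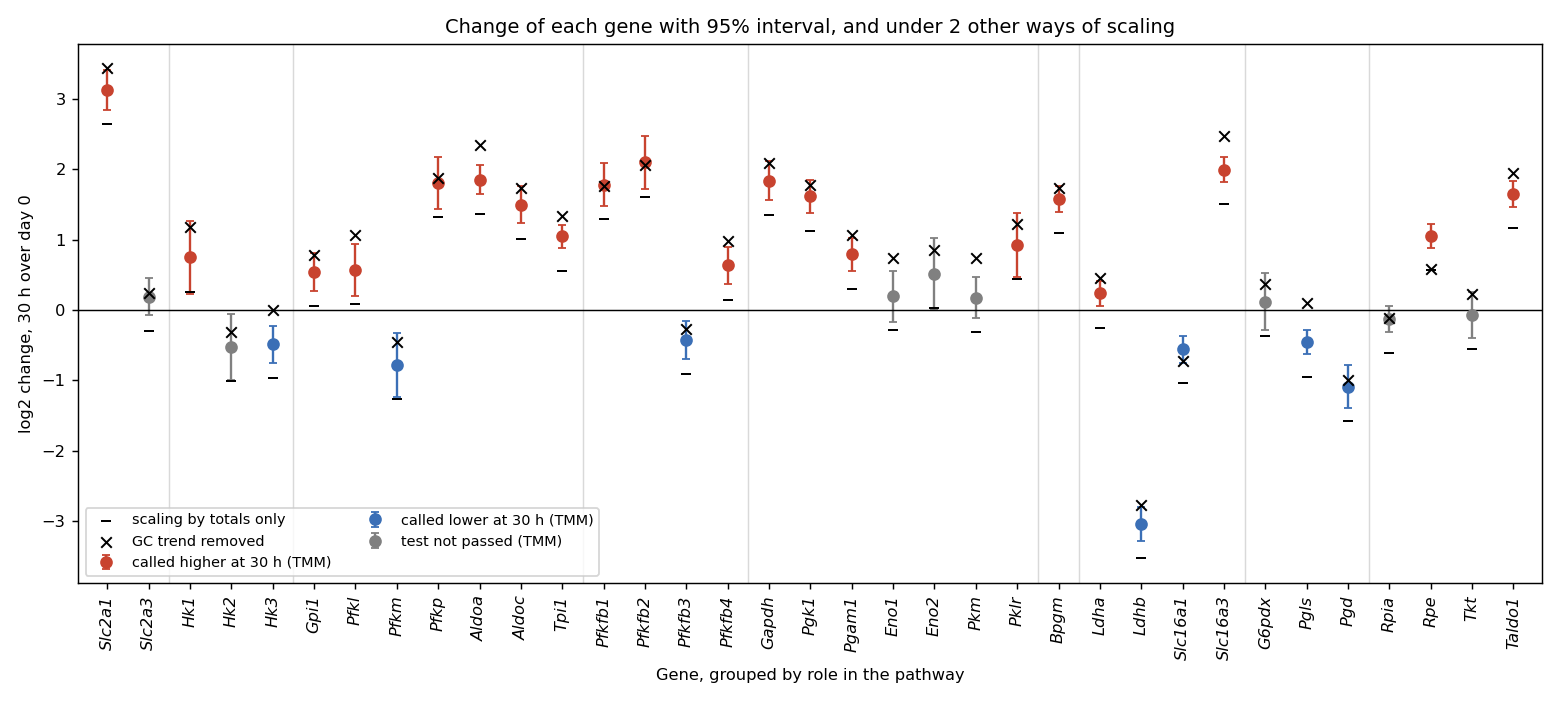
Log2 change from day 0 to 30 h (vertical axis) of the 35 genes by role (horizontal axis). Circles are edgeR estimates with TMM scaling, and the black marks are scaling by totals only and the GC trend removed. Bars are approximate 95% intervals from a normal approximation, which is too narrow for 3 libraries a group. Those of Hk2 and Eno2 leave out 0 although their tests were not passed. Slc2a1 (3.13) and Ldhb (-3.05) stand farthest from 0.

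Upstream sequences of 3 genes are shown because the lactate carriers Slc16a3 and Slc16a1 moved in opposite directions and Pgk1 rose. Each starts 250 bases before the RefSeq start site (GRCm38.p6, plus strand) and stops at the start site or before any GENCODE M21 exon, and the Slc16a3 stretch lies in an intron of the longer GENCODE gene. Capitals mark ACGTG on either strand, the core of the hypoxia response element, with overlapping matches taken as 1 place. The printed stretches are chrX:106186850-106187099 for Pgk1, chr11:120948817-120949052 for Slc16a3 and chr3:104638414-104638663 for Slc16a1.
Pgk1: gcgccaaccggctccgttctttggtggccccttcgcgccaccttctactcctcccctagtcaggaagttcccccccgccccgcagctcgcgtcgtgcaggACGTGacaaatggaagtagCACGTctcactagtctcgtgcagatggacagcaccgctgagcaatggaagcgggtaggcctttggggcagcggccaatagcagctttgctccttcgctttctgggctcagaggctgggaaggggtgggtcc
Slc16a3: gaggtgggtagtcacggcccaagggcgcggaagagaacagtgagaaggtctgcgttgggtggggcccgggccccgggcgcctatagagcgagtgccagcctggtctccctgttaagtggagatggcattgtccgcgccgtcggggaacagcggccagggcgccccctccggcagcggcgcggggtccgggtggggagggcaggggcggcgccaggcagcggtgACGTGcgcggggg
Slc16a1: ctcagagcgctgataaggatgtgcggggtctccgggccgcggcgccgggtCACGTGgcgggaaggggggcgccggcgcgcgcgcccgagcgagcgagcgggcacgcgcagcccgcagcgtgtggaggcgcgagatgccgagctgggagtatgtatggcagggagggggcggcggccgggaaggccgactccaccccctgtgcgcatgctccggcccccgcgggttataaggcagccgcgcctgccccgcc
Counted from the RefSeq start site to the leftmost base, the matches stood at -150 and -131 in Pgk1, at -27 in Slc16a3 and at -200 in Slc16a1, where the letters are part of the E-box CACGTG. The full Slc16a3 window holds 2 matches, of which the second reaches into the exon bases that are not printed. A window of 250 bases was found for 34 of the 35 genes, and 10 of these, or 29.4%, held ACGTG, against 16.6% of all 32851 windows. They were 5 of the 20 genes called higher (Slc2a1, Pgk1, Pgam1, Ldha and Slc16a3), 4 of the 7 called lower (Hk3, Pfkm, Pfkfb3 and Slc16a1) and Hk2. The longer E-box was in 3 of the 34, or 8.82%, against 6.02% of all windows. Each of the 34 genes entered with 1 window, the nearest to its gene start, whereas all windows include several for some genes. The shares set side by side are thus not built alike. A match is a description of these letters and not a binding site.

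Among the glucose transporter genes, Slc2a1 went from a larger share to nearly all of the pair. Slc2a1 is the gene of the glucose transporter GLUT1 (chromosome 4, 119108711 to 119137983, mm10). It went from 109, 105 and 107 CPM to 1078, 977 and 763 CPM in replicates 1, 2 and 3. Every 30 h library was far above day 0, and the rise of 8.78-fold was the largest among the 35 genes (log2 change 3.13 ± 0.15, SE; edgeR adjusted p = 1.5277e-06). Slc2a3, the gene of the high-affinity transporter GLUT3, went from 114, 112 and 107 CPM to 135, 142 and 101 CPM. Its groups overlapped and the test was not passed (edgeR adjusted p = 0.237), whereas without 30 h replicate 3 its log2 change was 0.33 and passed (edgeR adjusted p = 0.000505, range over the 16 alternatives 0.000505 to 0.724). Per kb of exon, the Slc2a1 share of the pair went from 66.6% ± 0.684 to 93.9% ± 0.436 (SD, n = 3).

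Hexokinases trap glucose by phosphorylating it, and the 3 listed genes differed. Hk1, the form of red cells, went from 356, 384 and 385 CPM to 872, 641 and 374 CPM. The 30 h replicates 1 and 2 were high and replicate 3 fell within the day 0 range. The 1.68-fold rise passed (edgeR adjusted p = 0.0324), but did not pass without 30 h replicate 2 or any 1 day 0 replicate (edgeR adjusted p 0.0757 to 0.0888) or by totals only (log2 change 0.26, edgeR adjusted p = 0.400, range over the 16 alternatives 8.5869e-05 to 0.400).

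Hk2, a form of muscle and fat, went from 60.7, 65.7 and 59.8 CPM to 52.3, 50.6 and 26.1 CPM. All 30 h values lay below day 0, yet the test was not passed (edgeR adjusted p = 0.0760). It was passed under 7 alternatives, including without 30 h replicate 1 (edgeR adjusted p = 0.0306) or replicate 3 (0.00495; range over the 16 alternatives 0.00495 to 0.187), and with the replicate block (0.0356). Hk3, a form best known from myeloid cells, went from 23.3, 23.2 and 22.6 CPM to 15.4, 19.4 and 14.4 CPM, without overlap. This 1.40-fold fall had a log2 change near 0 with the GC trend removed (edgeR adjusted p = 0.977, range over the 16 alternatives 0.000499 to 0.977). The 7 granulocyte markers, 2 called higher and 3 lower, summed to 3266 to 3378 CPM at day 0 and 3730 to 5711 CPM at 30 h, and their part in the Hk3 values was not tested. The Hk1 to Hk2 ratio of counts within libraries rose 2.40-fold without overlap.

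Of the 7 upper glycolysis genes, which carry sugar phosphates to triose phosphates, 6 rose and 1 fell. Gpi1, the isomerase at the branch point to the pentose phosphate pathway, went from 433, 440.4 and 437 CPM to 728, 669.6 and 512 CPM, without overlap. It rose 1.46-fold (edgeR adjusted p = 0.00697), but by totals only its log2 change was 0.06 (edgeR adjusted p = 0.734, range over the 16 alternatives 1.5533e-06 to 0.734). Aldoa, the main aldolase gene, was as counted the highest of the 35 in CPM per kb of exon at 30 h. Genes with many shared windows, such as Gapdh, may have lost reads, so their rank is uncertain. Aldoa went from 1139, 1103 and 1107 CPM to 4292, 4188 and 3600 CPM. Its 30 h values were all several times those of day 0, a rise of 3.61-fold (edgeR adjusted p = 3.1195e-06). A second gene ID named Aldoa, at a mean of 0.465 CPM at day 0 and 1.43 CPM at 30 h, was kept apart.

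Aldoc, the aldolase best known from brain, went from 7.97, 8.17 and 6.34 CPM to 20.9, 22.5 and 20.1 CPM, a rise of 2.82-fold (edgeR adjusted p = 2.9514e-05). Tpi1, triose phosphate isomerase, went from 792, 780.0 and 771 CPM to 1625, 1643 and 1570 CPM. Its 30 h libraries lay close together, and the rise was 2.06-fold (edgeR adjusted p = 1.7056e-05).

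The phosphofructokinases, whose step commits sugar to glycolysis, changed in opposite directions. Pfkl, the liver-type and most abundant subunit per kb of exon, went from 332, 344 and 325 CPM to 615, 515 and 355 CPM. Its 1.48-fold rise (edgeR adjusted p = 0.0229) did not pass without 30 h replicate 2 or any 1 day 0 replicate (edgeR adjusted p 0.0592 to 0.0721) or by totals only (log2 change 0.08, edgeR adjusted p = 0.711, range over the 16 alternatives 5.7205e-06 to 0.711). Pfkm, the muscle-type subunit, went from 96.2, 97.1 and 98.2 CPM to 73.8, 60.0 and 35.6 CPM, all below day 0. It fell 1.72-fold (edgeR adjusted p = 0.0155), but did not pass with the GC trend removed (log2 change -0.46, edgeR adjusted p = 0.0642, range over the 16 alternatives 0.000196 to 0.0642). Pfkp, the platelet-type subunit, went from 50.2, 49.6 and 49.8 CPM to 211, 189 and 124 CPM, all above day 0, and rose 3.51-fold (edgeR adjusted p = 6.4363e-05).

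Per kb of exon, the Pfkm share of the phosphofructokinases went from 35.1% ± 0.750 to 16.0% ± 1.27 (SD, n = 3). The Pfkp share went from 4.49% ± 0.0907 to 12.6% ± 0.394 (SD, n = 3), and Pfkl led in all 6 libraries. Exons of Pfkp share 5.58% of their bases with Pitrm1 on the opposite strand, which had a log2 change of 0.47 and 5915 counts per library on average against 2427 for Pfkp.

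**Figure D2:**
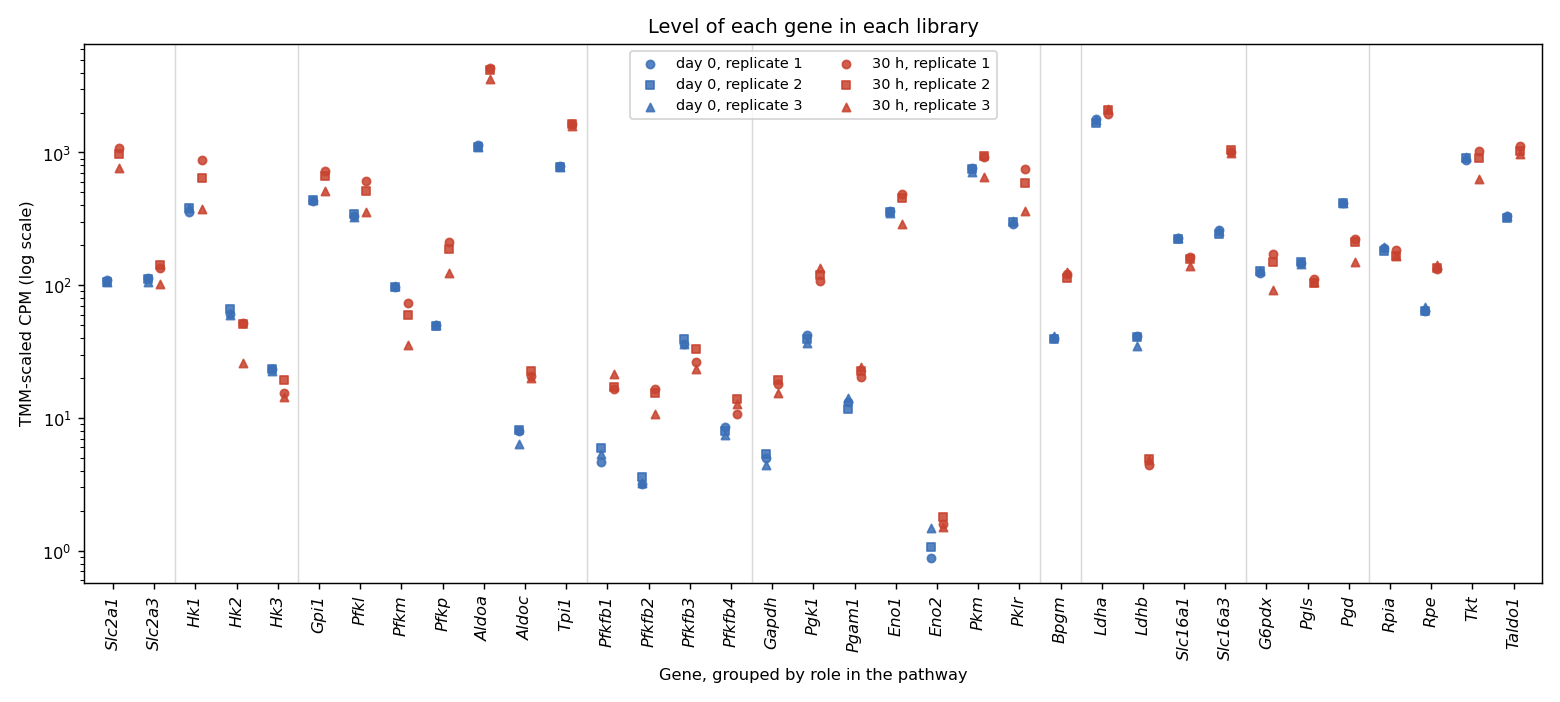
Level of each of the 35 genes (horizontal axis, by role) in each library, in TMM-scaled CPM on a log scale (vertical axis); blue is day 0, red is 30 h and the symbol gives the replicate. Day 0 replicates nearly coincide for most genes, while 30 h replicate 3 (red triangles) is the lowest 30 h library for 25 genes.

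The PFKFB enzymes set the level of the fructose bisphosphate that activates phosphofructokinase, and their genes moved unequally. Pfkfb3, whose enzyme favors the kinase reaction, went from 36.0, 39.5 and 36.1 CPM to 26.6, 33.1 and 23.4 CPM, all below day 0. The 1.34-fold fall (edgeR adjusted p = 0.0238) did not pass without 30 h replicate 1 or any 1 day 0 replicate (edgeR adjusted p 0.0553 to 0.0893) or with the GC trend removed (log2 change -0.26, edgeR adjusted p = 0.0751, range over the 16 alternatives 0.000994 to 0.0893). Pfkfb1 went from 4.66, 5.97 and 5.31 CPM to 16.5, 17.05 and 21.5 CPM, a rise of 3.44-fold (edgeR adjusted p = 2.7117e-05). Pfkfb2 went from 3.19, 3.58 and 3.22 CPM to 16.6, 15.5 and 10.6 CPM, a rise of 4.29-fold (edgeR adjusted p = 3.1381e-05). For both, every 30 h library lay above day 0. Exons of Pfkfb1 share 3.06% of their bases with Apex2 on the opposite strand. Apex2 had a log2 change of 0.59 and averaged 490 counts per library, against 251 for Pfkfb1. Exons of Pfkfb2 share 2.12% of their bases with Yod1 on the opposite strand, which had a log2 change of 3.14 and 973 counts per library on average against 185 for Pfkfb2.

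Pfkfb4 went from 8.57, 7.94 and 7.50 CPM to 10.8, 13.8 and 12.7 CPM, a rise of 1.55-fold (edgeR adjusted p = 0.00305). It did not pass by totals only (edgeR adjusted p = 0.371). Over the 16 alternatives adjusted p ran from 5.7740e-05 (DESeq2) to 0.371 (edgeR). Per kb of exon, the Pfkfb3 share of the family went from 59.0% ± 0.282 to 28.6% ± 3.73 (SD, n = 3), and the Pfkfb1 share from 15.8% ± 1.35 to 35.9% ± 6.02 (SD, n = 3).

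In lower glycolysis, which turns triose phosphates into pyruvate and yields ATP, 4 of 7 genes rose and 3 did not pass. Gapdh, the triose phosphate dehydrogenase, went from 5.004, 5.37 and 4.43 CPM to 18.2, 19.3 and 15.6 CPM, a rise of 3.58-fold (edgeR adjusted p = 1.2127e-05). Of the 50-base windows of its main transcript 82.5% also occur in other genes, so its level is uncertain. Exons of Gapdh also share 1.65% of their bases with Iffo1 on the opposite strand. Iffo1 had a log2 change of -0.06 and averaged 428 counts per library, against 241 for Gapdh. Pgk1, the kinase of the first ATP-yielding step, with 68.0% of windows shared, went from 42.3, 39.1 and 36.4 CPM to 108, 119.6 and 135 CPM, a rise of 3.07-fold (edgeR adjusted p = 1.1084e-05). Pgam1, the phosphoglycerate mutase, with 41.5% shared, went from 13.1, 11.7 and 14.1 CPM to 20.5, 22.7 and 24.2 CPM. It rose 1.73-fold (edgeR adjusted p = 0.000509), and by totals only did not pass (edgeR adjusted p = 0.0546). Over the 16 alternatives adjusted p ran from 1.4763e-07 (DESeq2) to 0.0546 (edgeR). In these 3 genes all 30 h libraries lay above day 0. Without them and Eno1 (72.2% shared), 17 of 31 genes were higher (54.8%) and 7 lower (22.6%). Among all genes tested 34.4% were higher and 40.1% lower.

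Eno1, the main enolase, went from 362, 358 and 350.1 CPM to 489, 450.3 and 288 CPM, with overlap (edgeR adjusted p = 0.357). Pkm, the pyruvate kinase gene of most tissues, went from 765, 752 and 719 CPM to 928, 939.9 and 652 CPM, with overlap (edgeR adjusted p = 0.314). Without 30 h replicate 3, the lowest library in both, they passed as higher, at log2 changes of 0.40 (edgeR adjusted p = 7.4928e-05, range over the 16 alternatives 7.4928e-05 to 0.801) and 0.33 (0.000227, range over the 16 alternatives 0.000227 to 0.857). Both also passed with the GC trend removed, at 0.74 (0.00274) and 0.74 (0.000625) by edgeR. Eno2, the neuronal enolase, lay under 2 CPM in all libraries and did not pass (edgeR adjusted p = 0.107), but did with the GC trend removed (log2 change 0.86, edgeR adjusted p = 0.0168) and without day 0 replicate 3 (0.0405; range over the 16 alternatives 0.0168 to 0.944).

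Pklr, the pyruvate kinase of red cells and liver, went from 289, 302 and 304 CPM to 748, 588 and 365 CPM. All 30 h values lay above day 0 but far apart, and the rise was 1.90-fold (edgeR adjusted p = 0.00680). By totals only it did not pass (log2 change 0.44, edgeR adjusted p = 0.125, range over the 16 alternatives 2.2985e-06 to 0.125). Per kb of exon, the Pklr share of the pyruvate kinases went from 38.2% ± 1.33 to 50.3% ± 4.66 (SD, n = 3), and from 25.1% to 35.5% with longest-transcript lengths. By exon length the Pklr share at 30 h was 55.4%, 49.1% and 46.4% in replicates 1, 2 and 3, so Pklr led Pkm in replicate 1 only. With either length the mean Pklr share was higher at 30 h.

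Bpgm, the BPG mutase gene (chromosome 6, 34476207 to 34505613, mm10), went from 40.2, 39.0 and 41.2 CPM to 121, 114 and 126 CPM. The libraries of each group lay close together and the rise was 3.00-fold (log2 change 1.58 ± 0.09, SE; edgeR adjusted p = 3.5065e-06). BPG mutase and the enzyme of Pgk1 compete for 1 substrate. The log2 ratio of Bpgm to Pgk1 counts was 0.0340 ± 0.130 at day 0 and -0.000616 ± 0.152 at 30 h (SD, n = 3), which overlapped (p = 0.5, two-sided exact permutation test). Against Pgam1 the Bpgm count rose 1.73-fold without overlap. These ratios are of counts not scaled by length, and Pgk1 and Pgam1 share 68.0% and 41.5% of windows with other genes. The level of each ratio is therefore uncertain. Minpp1, the gene of a phosphatase that also acts on BPG, fell from 175 ± 8.12 to 103 ± 7.53 CPM (SD, n = 3).

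Lactate dehydrogenase shifted further toward Ldha. Ldha, the muscle-type form, was as counted the highest of the 35 in CPM per kb of exon at day 0, with the same limit as for Aldoa. It went from 1800, 1674 and 1748 CPM to 1947, 2100 and 2115 CPM, without overlap. The 1.18-fold rise passed narrowly (edgeR adjusted p = 0.0425). By totals only Ldha was called lower (log2 change -0.25, edgeR adjusted p = 0.0351). It did not pass without 30 h replicate 2 or any 1 day 0 replicate (edgeR adjusted p 0.102 to 0.158, range over the 16 alternatives 0.00588 to 0.435) or with the replicate block (0.0980). Nor did it pass with upper-quartile scaling (log2 change 0.11, edgeR adjusted p = 0.435) or with no filter on low counts (0.15, 0.361).

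Ldhb, the heart-type form, went from 41.2, 40.7 and 35.1 CPM to 4.44, 4.89 and 4.85 CPM. Every 30 h value was far below day 0, and the 8.25-fold fall was the largest among the 35 genes (log2 change -3.05 ± 0.13, SE; edgeR adjusted p = 9.2297e-07). The Ldha to Ldhb ratio of counts rose 9.66-fold, and per kb of exon the Ldhb share of the pair went from 4.51% ± 0.416 to 0.483% ± 0.00509 (SD, n = 3). The hepatoblast and mesenchymal markers fell in the same libraries, and their part in the fall of Ldhb was not tested. In bulk samples, fewer cells of a type and less RNA per cell cannot be told apart.

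The lactate carriers moved apart. Slc16a3 (MCT4), a carrier of highly glycolytic cells, went from 263, 242 and 258 CPM to 1011, 1049 and 991 CPM, all above day 0. It rose 3.997-fold (edgeR adjusted p = 1.2732e-06). Slc16a1 (MCT1), a widespread carrier of lactate in both directions, went from 228, 222 and 227 CPM to 164, 157 and 139 CPM, all below day 0. It fell 1.47-fold (edgeR adjusted p = 0.00105). Per kb of exon the Slc16a3 share of this pair went from 48.4% ± 0.714 to 84.7% ± 0.946 (SD, n = 3), and from 53.5% to 87.1% with longest-transcript lengths. Bsg, the gene of basigin, the partner that takes both carriers to the cell surface, rose from 593 ± 6.77 to 2556 ± 272 CPM (SD, n = 3). The stretches printed above hold ACGTG in the carrier gene that rose and in the one that fell.

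**Figure D3:**
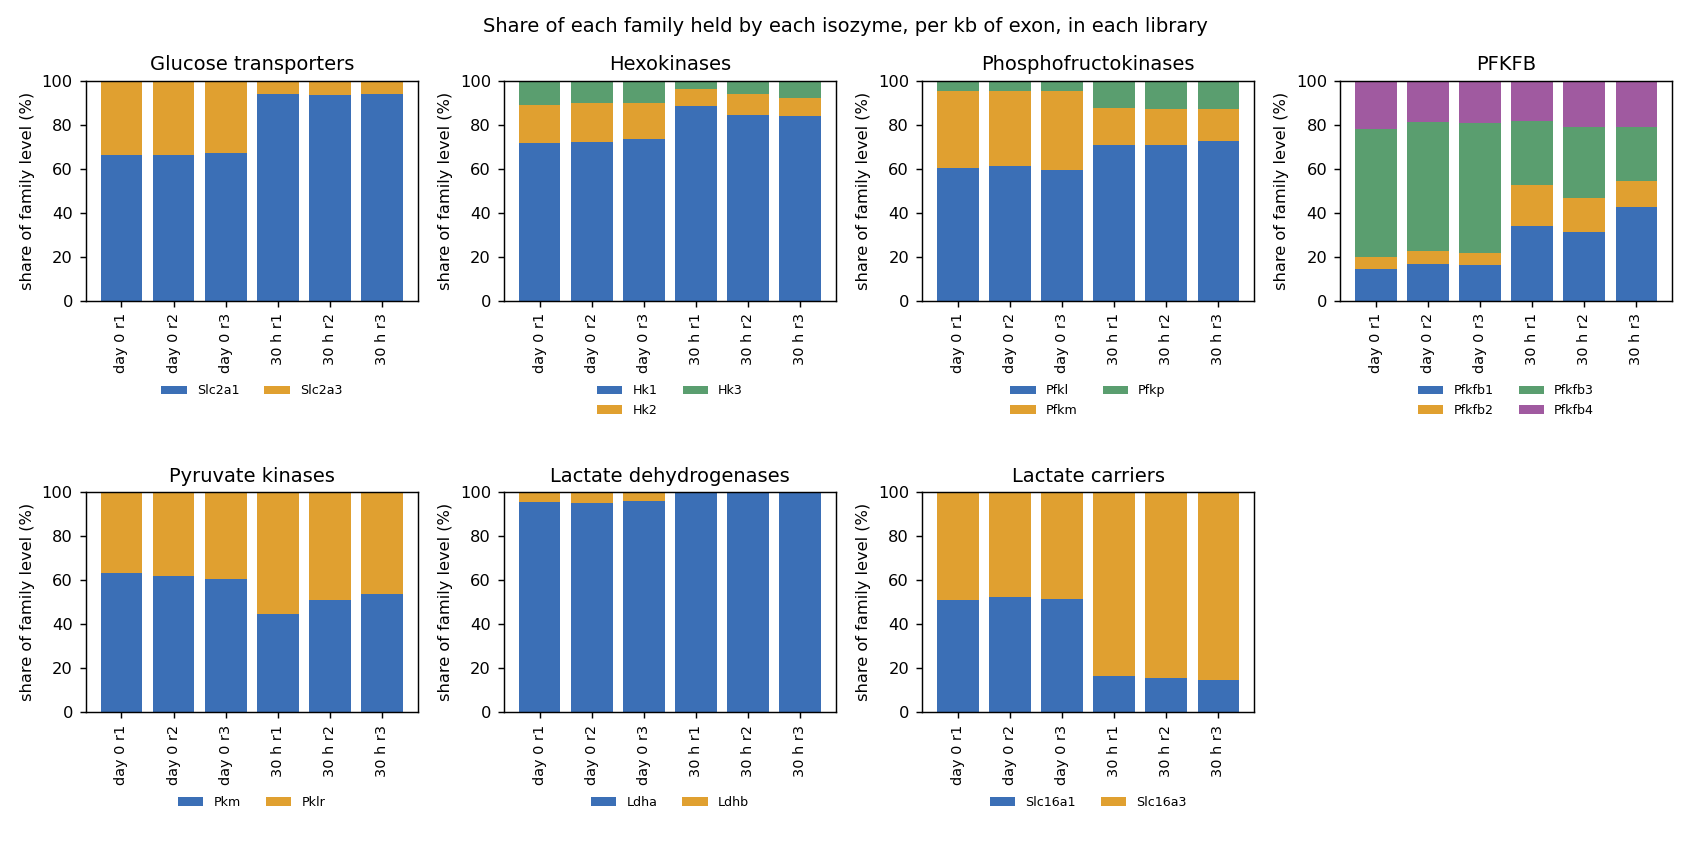
Share of the summed level of each family held by each isozyme (vertical axis, percent, from counts per kb of exon) in each library (horizontal axis). The mean Slc2a1 share goes from 66.6% to 93.9% and the mean Slc16a3 share from 48.4% to 84.7%.

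None of the 3 oxidative pentose phosphate genes was called higher, and 2 fell. G6pdx, the gene of the entry enzyme, went from 123, 128 and 128 CPM to 172, 149 and 91.3 CPM. Replicates 1 and 2 at 30 h were above day 0 and replicate 3 below it, and the test was not passed (log2 change 0.12, approximate 95% interval -0.29 to 0.53, edgeR adjusted p = 0.620). That interval rests on a normal approximation and is too narrow for 3 libraries a group. Without 30 h replicate 3 G6pdx was called higher (log2 change 0.35, edgeR adjusted p = 0.000773, range over the 16 alternatives 0.000773 to 0.945). Its exons share 13.6% of their bases with Ikbkg on the opposite strand, which had a log2 change of 1.22.

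Pgls, the lactonase, went from 146, 150.5 and 145 CPM to 111, 104 and 106 CPM, all below day 0. The 1.38-fold fall (edgeR adjusted p = 0.00151) turned to a log2 change of 0.10 with the GC trend removed (edgeR adjusted p = 0.407, range over the 16 alternatives 5.7066e-06 to 0.502). Pgd, the second NADPH-yielding dehydrogenase, went from 418, 414 and 413 CPM to 223, 212 and 149 CPM. Its 30 h values were all well below day 0, a fall of 2.13-fold (edgeR adjusted p = 0.000332). The Pgd to G6pdx ratio of counts fell 2.27-fold without overlap.

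Of the 4 non-oxidative genes, 2 rose and 2 did not pass. Taldo1, transaldolase, went from 335, 320.1 and 331 CPM to 1112, 1017 and 969.8 CPM, all above day 0, and rose 3.14-fold (edgeR adjusted p = 3.3367e-06). Tkt, transketolase, which works beside it, went from 873, 910.4 and 918 CPM to 1027, 913 and 634 CPM, on both sides of day 0 (edgeR adjusted p = 0.723). The Tkt to Taldo1 ratio of counts fell 3.36-fold without overlap. Rpe, the ribulose phosphate epimerase, went from 64.1, 64.3 and 68.2 CPM to 132, 135 and 141 CPM, all above day 0, and rose 2.07-fold (edgeR adjusted p = 1.9955e-05). Rpia, the isomerase that makes ribose phosphate, went from 190.0, 180.4 and 192 CPM to 184, 166 and 166 CPM, with overlap (edgeR adjusted p = 0.242). By totals only, Tkt and Rpia were called lower, at log2 changes of -0.56 (edgeR adjusted p = 0.0221, range over the 16 alternatives 0.0221 to 0.883) and -0.62 (0.000455, range over the 16 alternatives 0.000455 to 0.498). Rpia was also called lower with upper-quartile scaling (log2 change -0.26, edgeR adjusted p = 0.0288).

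Ratios of genes within a library do not depend on library scaling. Of 19 pairs compared, 17 had ratios that did not overlap between groups, each at p = 0.1 and 0.112 adjusted over the pairs (two-sided exact permutation test), so none passed 0.05 in this design. Several pairs share a gene, and no share over other gene pairs was computed. The count of 17 can therefore not be read as particular to these pairs. Of all single genes tested 79.7% did not overlap, but that share is of levels and not of ratios. The pairs that overlapped were Bpgm to Pgk1 and Eno1 to Eno2.

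**Figure D4:**
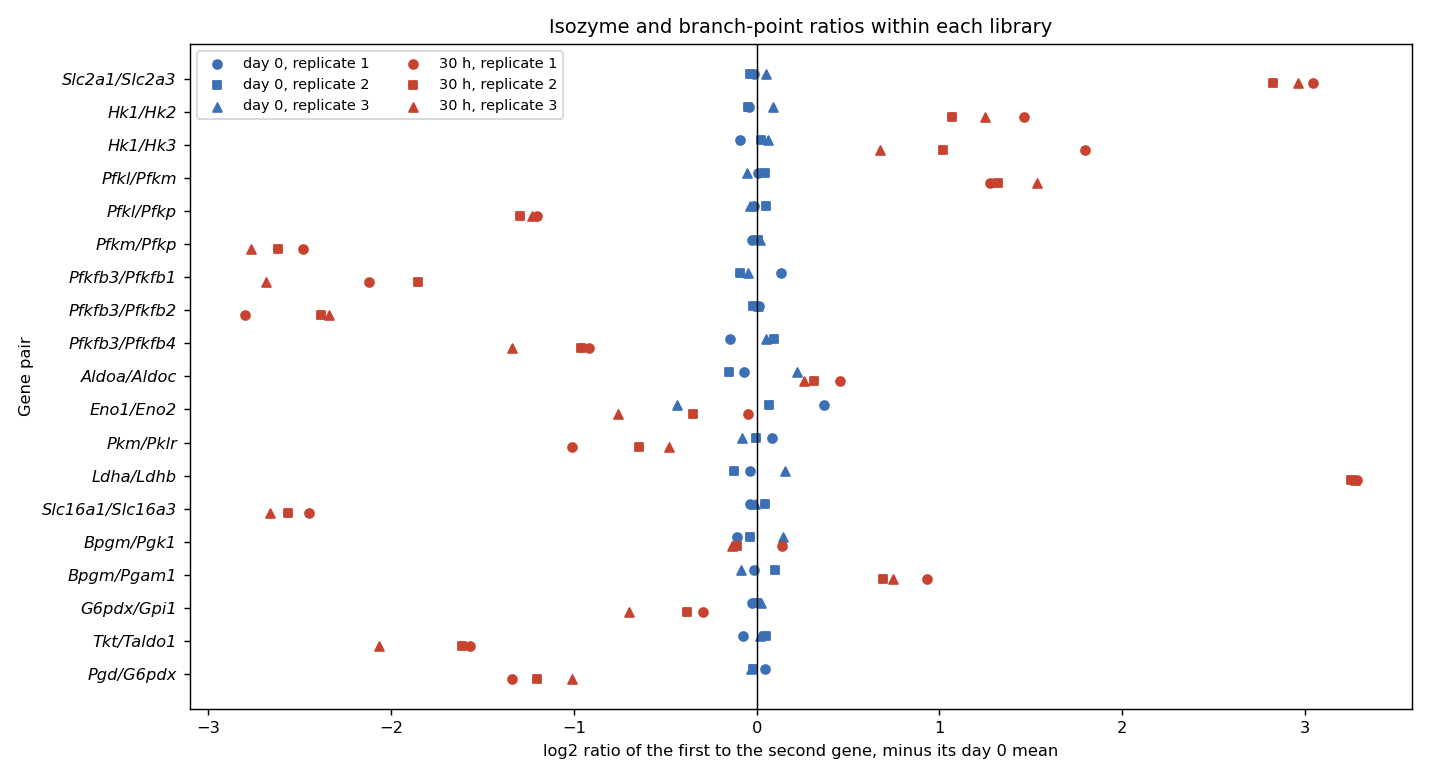
Log2 ratio of the counts of the first to the second gene in each library, minus its day 0 mean (horizontal axis), for 19 pairs (vertical axis); blue is day 0, red is 30 h and the symbol gives the replicate. Ldha to Ldhb moved farthest, by 3.27.

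Of 68 other genes of these and adjoining sugar pathways, 60 could be tested, and 16 were higher (26.7%, against 34.4% of all genes tested) and 30 lower (50%, against 40.1%). Slc2a4, the insulin-regulated glucose transporter, rose from 1.956 ± 0.275 to 12.2 ± 1.40 CPM (SD, n = 3). Slc2a2, the glucose transporter of liver, fell from 31.0 ± 3.52 to 0.507 ± 0.424 CPM (SD, n = 3). The hepatoblast markers fell in the same libraries, and their part in this fall was not tested. Tigar, the gene of a phosphatase that opposes PFKFB kinases, fell from 12.2 ± 0.547 to 5.96 ± 0.588 CPM (SD, n = 3). Pdk1, a kinase that switches off pyruvate dehydrogenase, rose 2.04-fold (edgeR adjusted p = 3.2080e-05). The genes of this kinase family did not move together. Pdk3 rose 2.02-fold (edgeR adjusted p = 6.1403e-05) and Pdk2 did not pass (edgeR adjusted p = 0.407). Pdk4 fell 5.66-fold (edgeR adjusted p = 0.000985), from a mean of only 1.61 CPM at day 0.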

How the data were processed

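The deposited files list whole-number read counts for each gene, with 1 library in each file. Per the submitters' processing notes the authors used cutadapt 1.13, STAR, HTSeq 0.6.1p1 and DESeq2 with build mm10. The sources used here do not give strand settings or the treatment of reads with several positions, so overlapping genes and near-identical copies may share or lose reads. Besides the overlaps named above, exons overlapped another gene by 22.0% in Pklr (Hcn3), 20.6% in Pgls (Fam129c), 17.9% in Rpe (Kansl1l) and 15.3% in Pkm (Gm49759). Fam129c and Gm49759 lie on the same strand as the gene they overlap. These neighbours averaged 107, 30, 199 and 161 counts per library, fewer than the genes they overlap. In Gpi1 the overlap was 11.5% with Gm26762 on the opposite strand, which averaged 13.5 counts per library.

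Symbols and exon lengths (union of exons) came from GENCODE M21. Genes were kept by filterByExpr, scaled by TMM and fitted with edgeR 4.0.16 in R 4.3.3 (quasi-likelihood, robust), and p-values were adjusted by Benjamini-Hochberg over 16150 genes. Levels are TMM-scaled CPM, and ratios used counts plus 0.5. Library values are given for each gene with a mean of at least 10 CPM in either group. The 16 alternatives were 4 other scalings, 2 other filters, DESeq2 1.42.0, the replicate number as a block, removal of the GC trend with and without that block, and each library left out. Ranges of adjusted p over the 16 alternatives include the DESeq2 test. Leaving out genes with many shared windows was chosen after seeing the data. Genes and lists were chosen with earlier results of these data known. No replicate pair agreed within counting noise (chi-square over degrees of freedom of 4.35 or more).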

Additional observations from a re-analysis of the deposited data

How the results depend on the processing

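Scaled by totals only, 13 of the 35 genes were higher and 11 lower, against 20 and 7 with TMM. With the GC trend removed 3 were lower, and 4 with the replicate block as well, against 36.9% and 35.2% of all genes. The replicate block alone gave 19 higher and 8 lower, against 32.5% and 38.9% of all genes. Whether replicate numbers pair the libraries is not in the labels, and 3 libraries a group cannot settle it. Correlations of deviations from group means were -0.105, 0.105 and -0.0293 for equal numbers and -0.108 to 0.141 for unequal ones. Leaving out 1 library gave 17 to 24 higher and 6 to 8 lower, against 30.8% to 38.0% and 36.6% to 42.0% of all genes. By totals only, log2 changes turned to -0.29 for Slc2a3, -0.29 for Eno1, -0.31 for Pkm, -0.25 for Ldha and -0.36 for G6pdx. G6pdx was at -0.0372 under upper-quartile scaling, and between -0.0139 and 0.349 with 1 library left out, and Tkt between -0.158 and 0.113. With the GC trend removed, Pgls was at 0.0989 (0.0945 with the block) and Tkt at 0.23 (0.21). The 30 h share of counts exceeded day 0 by 0.298 percentage points, and by 0.458 with globin genes left out. Removing the GC trend moved 11 log2 ratio changes beyond the replicate spread without turning them, to these values: Slc2a1 to Slc2a3 3.20, Hk1 to Hk2 1.48, Pfkl to Pfkm 1.55, Pfkl to Pfkp -0.81, Pfkm to Pfkp -2.36, Pfkfb3 to Pfkfb2 -2.31, Aldoa to Aldoc 0.61, Pkm to Pklr -0.45, Slc16a1 to Slc16a3 -3.21, Bpgm to Pgam1 0.67, Pgd to G6pdx -1.35. The Bpgm to Pgk1 change ran from -0.122 to 0.0376 with 1 library left out. The cause of these shifts was not tested. Low counts limit Eno2.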
